A study of Mus musculus with 18 samples.

Results

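Klf2, Klf3, Klf4, Klf6, Klf7, Klf13, Foxo1, Foxo3, Foxp1 and Tsc22d3 encode transcription regulators that are associated with the resting state of lymphocytes, and they were the genes chosen here, by symbol, from the 23420 genes listed for each library. Their level was measured by RNA-seq in 18 libraries of splenic B cells, isolated by negative selection with beads, which fall into 6 groups of 3. All mice were of the MRL/lpr strain, whose Fas lpr mutation goes with a lupus-like autoimmune disease, and were 5 to 7 weeks old per the labels. In the first arm all mice were female and Tlr7-/-. Cells titled Tlr9+/- Tlr7-/- (Tlr9het), with a functional TLR9, were compared with cells titled Tlr997 Tlr7-/- (Tlr997), whose allele at the Tlr9 locus encodes TLR9 with the TIR signaling domain of TLR7. The submitters' treatment text names Tlr9-/- Tlr7-/- in place of Tlr9+/- Tlr7-/-, and the titles were followed here. Both genotypes were left unstimulated or received the TLR9 agonist CpG at 10 µg/ml for 4 h. In the second arm all mice were male and Tlr9-/-, and the cells (Tlr779) carried an allele at the X-linked Tlr7 locus that encodes TLR7 with the TIR domain of TLR9. They were left unstimulated or received the TLR7 agonist CL097 at 5 µg/ml for 4 h. No control genotype of this arm was analysed here, and agonist, sex, genotype and arm change together between the arms, so the Tlr779 values stand beside the others without a test between arms. The labels give 3 mice per genotype but not that a replicate number marks a mouse, so p-values measure the spread between these libraries only.

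A resting B cell keeps itself out of the cell cycle with a set of transcription factors that hold growth and division genes down and keep homing receptors up. KLF2 is the best known of the Krüppel-like zinc finger factors in this role. The forkhead factors FOXO1 and FOXO3 act in the nucleus until the kinase AKT, activated through PI3K by antigen receptor or other signals, phosphorylates them and moves them to the cytoplasm. Transcript levels do not show that step, and the values given here are of transcripts, not of factor activity. FOXP1 is a forkhead factor needed for B cell development, and TSC22D3, also called GILZ, is a leucine zipper protein that glucocorticoids induce.

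Stretches upstream of the start site are shown for Klf2, a member that was lower with agonist in each of the 3 responses, and for Foxo1. Foxo1 was the only member whose difference in CpG response between the genotypes passed the thresholds used here. Both come from RefSeq (GRCm38.p6), run from 250 to 51 bases before the annotated start and lie on the plus strand, at chr8:72318812-72319011 for Klf2 and at chr3:52268087-52268286 for Foxo1. Capitals mark a GC box in both (GGGCGG, or its reverse complement) and, in Klf2, a match to the binding motif of MEF2 factors.
Klf2: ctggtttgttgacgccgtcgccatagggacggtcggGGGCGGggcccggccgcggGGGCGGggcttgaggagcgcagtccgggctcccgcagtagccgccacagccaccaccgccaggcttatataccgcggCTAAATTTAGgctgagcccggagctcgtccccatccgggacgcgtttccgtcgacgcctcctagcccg
Foxo1: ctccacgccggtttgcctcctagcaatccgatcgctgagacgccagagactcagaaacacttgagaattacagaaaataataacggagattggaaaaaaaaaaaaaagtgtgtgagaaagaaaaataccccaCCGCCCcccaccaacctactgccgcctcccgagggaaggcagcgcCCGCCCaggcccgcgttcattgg

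RefSeq windows of 250 bases before to 50 bases after a start were matched by symbol for 10 of 10 genes, which had 14 such windows among 32851. On either strand, the FOXO motif GTAAACA was in 0 of the 14 windows and in 3.65% of all windows, and the KLF motif CCACACCC was in 0 of 14 and in 3.56% of all. The GC box was in 12 of 14 windows, with at least 1 window for each of the 10 genes, and in 35.7% of all. G and C made up 48.7% to 76.7% of the 14 windows, against a median of 52.7% over all windows. The lowest share, 48.7%, was that of a Foxp1 window and a Tsc22d3 window, the ones without a GC box. Some of the GC boxes overlap each other. The E-box CACGTG was in the windows of Klf4 and Klf6 and in 7.15% of all. In Klf6 it lies at -43 to -38 relative to the start, as ctccaagctggtCACGTGgggggagaaggg at chr13:5861434-5861463 on the plus strand. The MEF2 motif was found in Klf2, at -118 to -109 relative to the start, and in 3.19% of all windows. NF-kB and glucocorticoid receptor motifs were in 0 of 14 windows, against 4.51% and 0.475% of all. These matches describe letters in a window, not bound sites. By the GENCODE annotation of GRCm38, Klf2 is at chr8:72319033-72321656 and Foxo1 at chr3:52268336-52353221, both on the plus strand.

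Values are log2 CPM (reads of a gene relative to all reads of its library, on a log2 scale) as the authors' quantile normalization and voom left them. The read depth of each library is unknown. CPM is relative to the rest of each library, and in such bulk samples fewer cells of a type and less RNA per cell cannot be told apart. Libraries of the same group correlated over the tested genes at Pearson r of 0.978 to 0.990 except for Tlr997 unstimulated replicate 3, which correlated with its group at 0.947 and 0.955. Values without this library are given where the genotypes and the Tlr997 responses are summarised. Tlr7 was at 2.68 to 4.28 log2 CPM in Tlr9het and at 4.81 to 5.36 in Tlr997, both labelled Tlr7-/-, and at 6.61 to 7.82 in Tlr779. Tlr9 was at 7.28 to 8.08 in Tlr9het, at 7.02 to 7.55 in Tlr997 and at 6.93 to 7.47 in Tlr779, labelled Tlr9-/-, where it overlapped with both other genotypes. Reads counted for a deleted gene were thus present in either arm. Each chimeric allele carries the TIR coding sequence of the gene labelled as deleted. Since the values are per gene and not per exon, they do not check the labelled deletions. Transcripts of 7 B cell markers, all listed, had a summed level of 10.8 to 12.9 log2 CPM, against 1.26 to 4.94 for 8 T cell markers, 6.38 to 8.74 for macrophage markers (8 of 9 listed), 4.63 to 7.57 for 9 neutrophil markers, 7.43 to 9.76 for plasma cell markers (3 of 4 listed), 1.25 to 4.15 for 5 NK cell markers, 0.825 to 3.18 for 3 plasmacytoid dendritic cell markers and 3.89 to 9.93 for erythroid markers (6 of 8 listed). Markers absent from the gene list under their current symbols were Adgre1, Jchain, Hbb-bs and Hbb-bt. The T cell gene Cd3e ranged from -4.66 to 2.37 log2 CPM and Hba-a1 was at the lowest common value, -5.05, in each library.

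**Figure D1:**
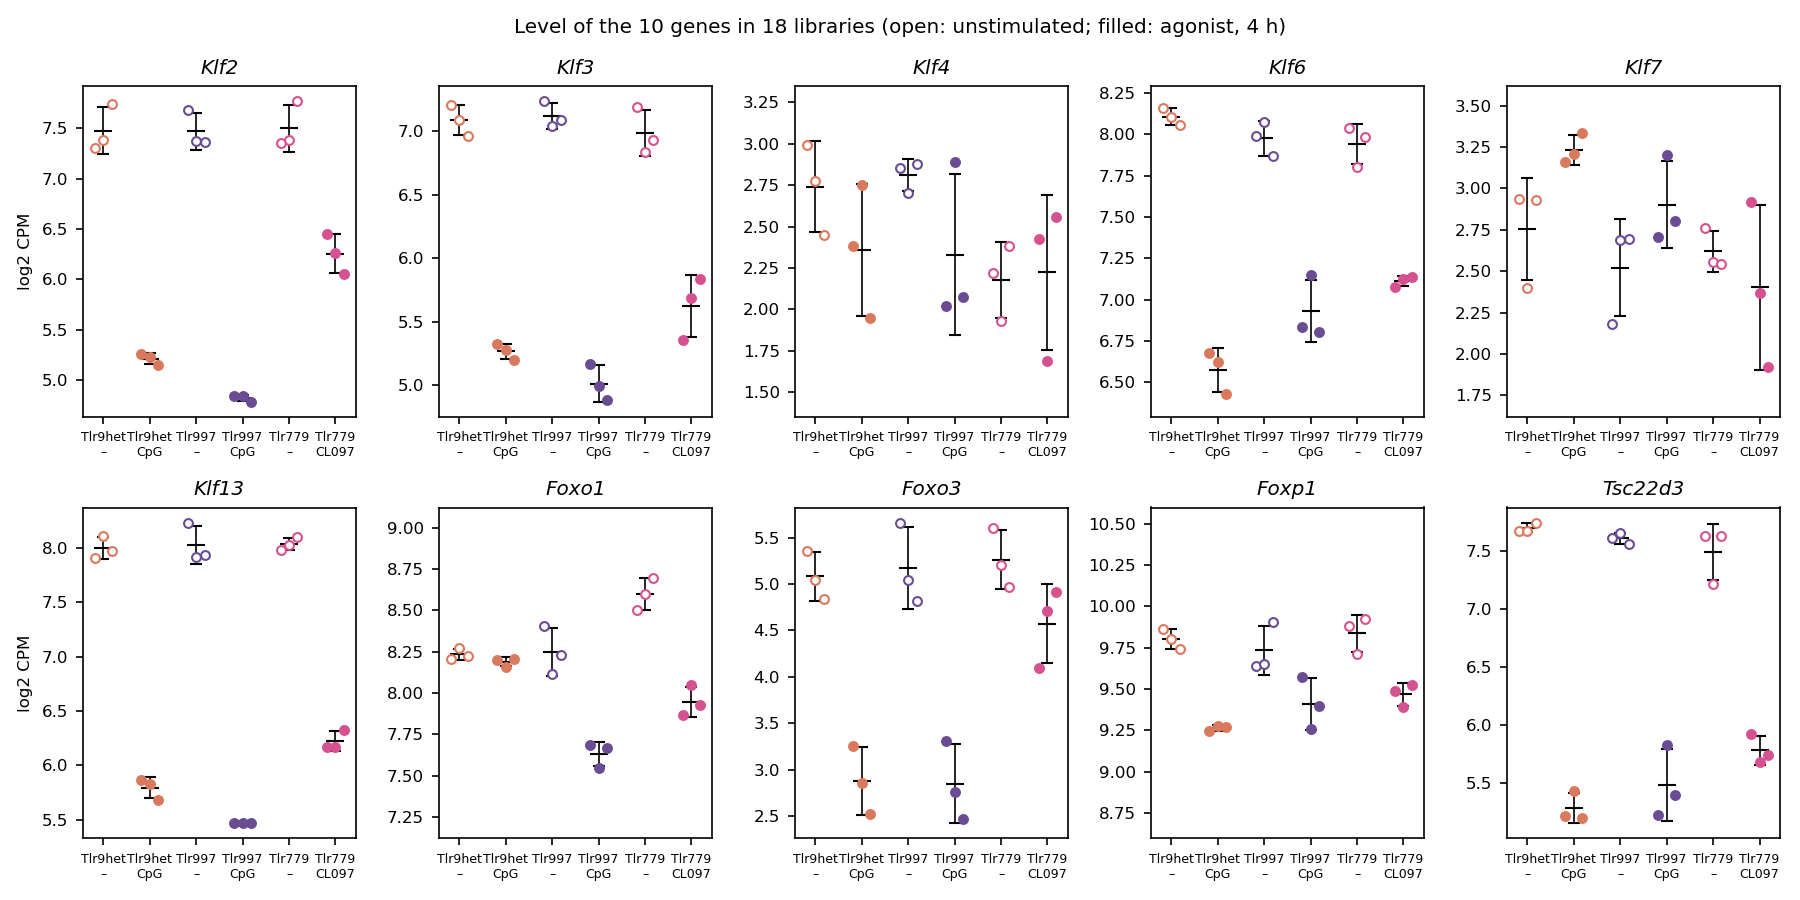
Level in log2 CPM of each of the 10 genes in the 18 libraries, by group (a dash stands for unstimulated). Each point is 1 library, and the bars are the mean and SD of 3 libraries. Panels have their own axes. Klf2 in Tlr9het sits at 7.3 to 7.75 unstimulated and at 5.15 to 5.26 with CpG, while Foxo1 stays at 8.16 to 8.27 in Tlr9het and drops to 7.55 to 7.68 in Tlr997 with CpG.

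Per kilobase of exon, which allows levels of different genes to be compared, Foxp1 was the most abundant of the 10 in unstimulated Tlr9het cells, at 6.83 ± 0.06 log2 CPM per kb (SD, n = 3), followed by Klf2 at 6.59 ± 0.24. These neighbours differed by less than the sum of their SDs. Then came Tsc22d3 at 6.23 ± 0.04, Klf6 at 6.03 ± 0.05, Klf13 at 5.26 ± 0.10, Foxo1 at 5.12 ± 0.04 and Klf3 at 4.66 ± 0.12. Foxo3 at 2.20 ± 0.26, Klf4 at 1.14 ± 0.28 and Klf7 at -0.26 ± 0.31 were far less abundant. The first 4 and the last 3 genes held the same places in unstimulated Tlr997 and Tlr779 cells. With CpG the order in Tlr9het changed: Foxo1 was in place 2, at 5.07 ± 0.03 log2 CPM per kb, and Foxo3 in place 10, at -0.01 ± 0.37. Klf6 and Klf2, at 4.50 ± 0.13 and 4.33 ± 0.06, were then closer than the sum of their SDs, as were Klf7 and Foxo3.

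The first comparison asked how the 10 genes respond to TLR9 stimulation through the unaltered TIR domain. With CpG, 7 of the 10 fell in Tlr9het cells, and 5 of them (Klf2, Klf3, Klf13, Foxo3 and Tsc22d3) fell by at least 3.53-fold. A call by limma needed a log2 fold change over 0.5 in size and an adjusted p under 0.05. Of all 11494 tested genes 28.2% were called lower and 29.7% higher, while the 10 genes had 7 called lower and 0 called higher. Their median log2 fold change was -1.68, against 0.04 over all tested genes. Klf4, Klf7 and Foxo1 were not called.

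Klf2 is known to keep lymphocytes quiescent and to maintain the receptors that guide their traffic. In Tlr9het it was at 7.3, 7.38 and 7.75 log2 CPM unstimulated and at 5.26, 5.23 and 5.15 with CpG. The groups did not overlap, and Klf2 fell 4.8-fold, a log2 fold change of -2.26 (SE 0.11, adjusted p = 4.9e-10). In Tlr997 it was at 7.68, 7.37 and 7.36 unstimulated and at 4.84, 4.84 and 4.78 with CpG. Each CpG library of Tlr997 was below each CpG library of Tlr9het, and the fall in Tlr997 was 6.28-fold, with a log2 fold change of -2.65 (SE 0.11, adjusted p = 1.5e-10). In Tlr779 it was at 7.35, 7.38 and 7.77 unstimulated and at 6.45, 6.26 and 6.06 with CL097. That fall was 2.37-fold, a log2 fold change of -1.25 (SE 0.14, adjusted p = 0.00012).

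Klf13, a further Krüppel-like factor of lymphocytes, was at 7.91, 8.10 and 7.97 log2 CPM in unstimulated Tlr9het cells and at 5.87, 5.83 and 5.69 with CpG. It was at 8.23, 7.92 and 7.93 in unstimulated Tlr997 cells and at 5.47, 5.47 and 5.47 with CpG. The 3 CpG libraries of Tlr997 were the closest set of values that any of the 10 genes had in a group. Klf13 fell 4.59-fold in Tlr9het, with a log2 fold change of -2.20 (SE 0.085, adjusted p = 6.4e-11), and 5.88-fold in Tlr997, with -2.56 (SE 0.085, adjusted p = 2.7e-11). In Tlr779 the values went from 7.98, 8.02 and 8.10 to 6.17, 6.17 and 6.33 with CL097. This log2 fold change of -1.81 (SE 0.071, adjusted p = 2.6e-06) was the lowest of the 10 genes in Tlr779.

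Klf3 encodes a transcriptional repressor of the same family. It was at 7.2, 7.09 and 6.97 log2 CPM in unstimulated Tlr9het cells and at 5.32, 5.28 and 5.20 with CpG, and at 7.24, 7.04 and 7.09 and 5.17, 4.99 and 4.88 in Tlr997. The groups did not overlap in either genotype. The log2 fold changes were -1.82 (SE 0.086, adjusted p = 4.3e-10) in Tlr9het and -2.11 (SE 0.086, adjusted p = 1.4e-10) in Tlr997. With CL097 the Tlr779 values went from 7.19, 6.84 and 6.93 to 5.36, 5.68 and 5.84, a log2 fold change of -1.36 (SE 0.14, adjusted p = 8.1e-05).

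Klf6, a broadly expressed member of the family, was at 8.16, 8.11 and 8.06 log2 CPM in unstimulated Tlr9het cells and at 6.68, 6.62 and 6.43 with CpG. In Tlr997 it was at 7.99, 8.08 and 7.87 unstimulated and at 6.84, 7.15 and 6.81 with CpG. The CpG libraries of Tlr997 lay above those of Tlr9het, in contrast to Klf2, Klf3 and Klf13. Klf6 fell 2.89-fold in Tlr9het, with a log2 fold change of -1.53 (SE 0.093, adjusted p = 4.7e-09), and 2.06-fold in Tlr997, with -1.05 (SE 0.093, adjusted p = 2.7e-07). In Tlr779 the values went from 8.04, 7.80 and 7.98 to 7.08, 7.13 and 7.14, a log2 fold change of -0.83 (SE 0.075, adjusted p = 4.4e-05).

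Klf4, a factor known from reprogramming and as a brake on B cell division, and Klf7 were near the lower end of the range of the 10 genes. Klf4 was at 1.68 to 3.00 log2 CPM over the 18 libraries, with overlapping groups in each response. Its log2 fold changes were -0.38 (SE 0.26, adjusted p = 0.21) in Tlr9het, -0.48 (SE 0.26, adjusted p = 0.12) in Tlr997 and 0.045 (SE 0.27, adjusted p = 0.9) in Tlr779, none of them called. Without Tlr997 CpG replicate 2, the Tlr997 value was -0.76 with an adjusted p of 0.016, a call. Klf7 was at 2.40 to 2.93 log2 CPM in unstimulated Tlr9het cells and at 3.16 to 3.33 with CpG, without overlap. The log2 fold change of 0.48 (SE 0.21) had an adjusted p of 0.04995 but missed the threshold on its size, and it was called higher, at 0.57, without Tlr9het unstimulated replicate 1 or 3. Without unstimulated replicate 2, the lowest of the 3, it was 0.30 with an adjusted p of 0.22. Klf7 had log2 fold changes of 0.38 (SE 0.21, adjusted p = 0.11) in Tlr997 and -0.22 (SE 0.26, adjusted p = 0.49) in Tlr779, with overlapping groups in Tlr779.

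Tsc22d3 had the strongest response of the 10 in Tlr9het. It was at 7.68, 7.68 and 7.75 log2 CPM unstimulated and at 5.21, 5.43 and 5.19 with CpG, a 5.37-fold fall with a log2 fold change of -2.42 (SE 0.12, adjusted p = 6.1e-10). In Tlr997 it was at 7.61, 7.66 and 7.57 and 5.22, 5.82 and 5.40, a log2 fold change of -2.14 (SE 0.12, adjusted p = 2.7e-09). The CpG libraries of the genotypes overlapped. In Tlr779 it went from 7.63, 7.22 and 7.63 to 5.92, 5.68 and 5.74 with CL097, a log2 fold change of -1.71 (SE 0.13, adjusted p = 1.6e-05).

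Foxp1 was the most abundant of the 10 by either scale. Its values were 9.86, 9.81 and 9.74 log2 CPM in unstimulated Tlr9het cells and 9.25, 9.28 and 9.27 with CpG. The fall of 1.45-fold in Tlr9het, a log2 fold change of -0.54 (SE 0.083, adjusted p = 5.1e-05), just passed the threshold on size. In Tlr997 the values were 9.64, 9.65 and 9.91 unstimulated and 9.57, 9.26 and 9.40 with CpG, and in Tlr779 they were 9.88, 9.71 and 9.92 unstimulated and 9.49, 9.39 and 9.53 with CL097. Those log2 fold changes, -0.33 (SE 0.083, adjusted p = 0.0032) and -0.37 (SE 0.079, adjusted p = 0.004), were under the threshold on size. Without Tlr997 unstimulated replicate 3, the highest of the Tlr997 libraries for Foxp1, the Tlr997 value was -0.24 with an adjusted p of 0.014.

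Foxo3 spread more between libraries of a group than Foxo1. It was at 5.36, 5.05 and 4.84 log2 CPM in unstimulated Tlr9het cells and at 3.26, 2.86 and 2.52 with CpG, and at 5.66, 5.04 and 4.82 and 3.31, 2.76 and 2.47 in Tlr997. In these 4 groups replicate 1 was the highest and replicate 3 the lowest. The groups were far apart all the same: Foxo3 fell 4.61-fold in Tlr9het, with a log2 fold change of -2.21 (SE 0.26, adjusted p = 4.1e-06), and 5.01-fold in Tlr997, with -2.33 (SE 0.26, adjusted p = 2.7e-06). In Tlr779 the values were 5.61, 5.21 and 4.97 unstimulated and 4.10, 4.71 and 4.92 with CL097, where replicate 1 was the lowest. The log2 fold change of -0.69 (SE 0.23, adjusted p = 0.032) was called. It lost the call without Tlr779 unstimulated replicate 1 (-0.52, adjusted p = 0.11), unstimulated replicate 2 (-0.72, adjusted p = 0.065) or CL097 replicate 1 (-0.45, adjusted p = 0.078), and when all listed genes were tested (adjusted p = 0.19).

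Foxo1 is known to control antigen receptor gene assembly, homing receptors and germinal center responses in B cells. In Tlr9het it was at 8.21, 8.27 and 8.22 log2 CPM unstimulated and at 8.20, 8.16 and 8.21 with CpG. The groups overlapped, and the log2 fold change of -0.044 (SE 0.067, adjusted p = 0.58) had a 95% interval of -0.19 to 0.10. In Tlr997 it was at 8.40, 8.11 and 8.23 unstimulated and at 7.68, 7.55 and 7.67 with CpG. There the groups did not overlap, and Foxo1 fell 1.53-fold, with a log2 fold change of -0.62 (SE 0.067, adjusted p = 2.2e-06). In Tlr779 it was at 8.50, 8.60 and 8.69 unstimulated and at 7.87, 8.05 and 7.93 with CL097. It fell 1.57-fold, with a log2 fold change of -0.65 (SE 0.077, adjusted p = 0.00017).

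In Tlr997, 7 of the 10 genes were called lower with CpG and 0 higher, where 26% of all tested genes were called lower and 29.6% higher. The median over the 10 was -1.58, against 0.07 over all. Foxo1 was among the 7 and Foxp1 was not, the reverse of Tlr9het. Without Tlr997 unstimulated replicate 3 the count was 7 as well, and the log2 fold changes were -2.71 for Klf2, -2.13 for Klf3, -1.10 for Klf6, -2.60 for Klf13, -0.63 for Foxo1, -2.50 for Foxo3 and -2.16 for Tsc22d3. Of 20 Tlr997 responses of other genes given further on, 0 lost their call without this library and 1, that of Klf9, moved by over 1.5 times. In Tlr779, 7 of the 10 were called lower with CL097 and 0 higher, where 23.6% of 11082 tested genes were called lower and 22.7% higher. The median over the 10 was -0.76, against -0.02 over all. Summed B cell markers also moved with agonist, and were at 12.6 to 12.7 log2 CPM without and 10.8 with CpG in Tlr9het, at 12.5 to 12.6 without and 11.5 to 11.7 with CpG in Tlr997, and at 12.5 to 12.9 without and 11.3 to 11.6 with CL097 in Tlr779. Summed T cell markers were at 2.07 to 3.5 without and 3.69 to 4.94 with CpG in Tlr9het and at 2.28 to 3.49 without and 3.49 to 4.57 with CpG in Tlr997, higher with CpG in either case, and overlapped in Tlr779. Macrophage markers were lower with CpG in Tlr9het without overlap, at 7.44 to 7.91 and 6.82 to 7.36. Plasmacytoid dendritic cell markers were so in Tlr9het, at 2.77 to 3.18 and 2.39 to 2.63, and in Tlr997, at 2.41 to 2.71 and 1.31 to 2.20. Plasma cell markers were lower with agonist without overlap in Tlr997, at 8.55 to 8.87 and 7.66 to 8.09, and in Tlr779, at 9.07 to 9.76 and 8.31 to 9.05. The neutrophil, NK cell and erythroid sums overlapped in each response. The part of these marker levels in the responses was not tested.

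**Figure D2:**
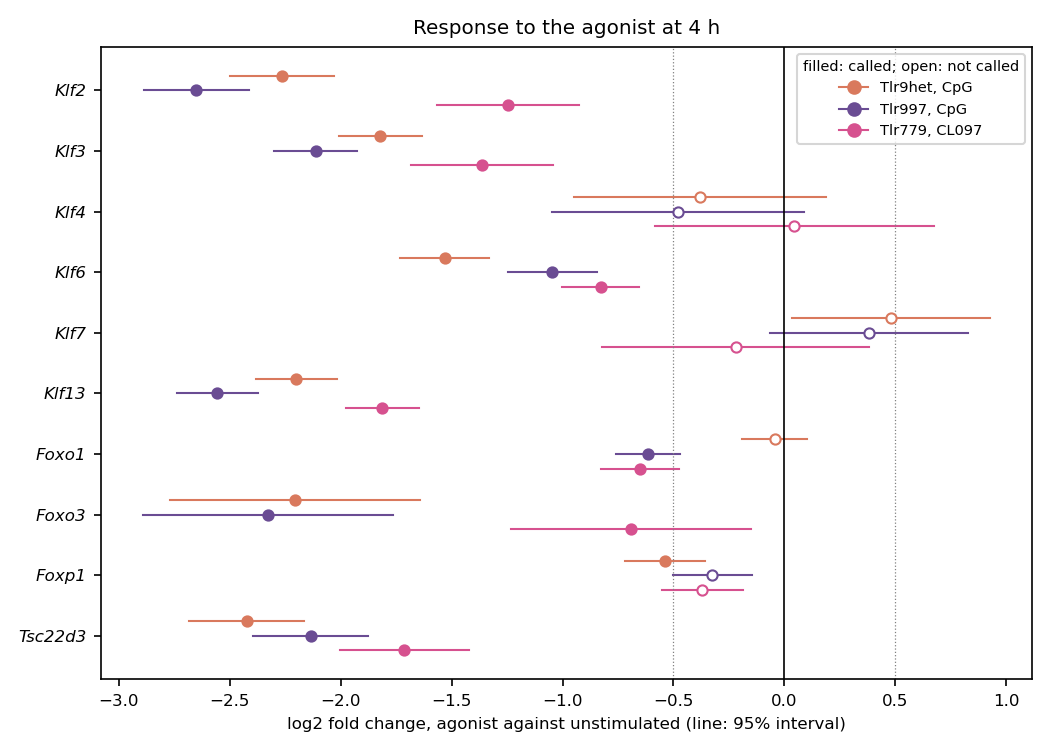
Log2 fold change of each of the 10 genes with agonist against unstimulated, in Tlr9het and Tlr997 with CpG and in Tlr779 with CL097. Points are limma estimates from 3 libraries against 3, lines are 95% intervals, filled points were called and dotted lines mark 0.5 on either side of 0. Foxo1 is at -0.04 in Tlr9het, -0.62 in Tlr997 and -0.65 in Tlr779.

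The next comparison set Tlr997 against Tlr9het, which differ by design in the TIR domain of the receptor encoded at the Tlr9 locus. They also differ in zygosity. The study describes the Tlr997 mice as homozygous for that allele and Tlr9het as heterozygous for Tlr9, with equal TLR9 protein in their B cells. The levels counted for the receptor genes differed. By design the Tlr997 allele carries the TIR coding sequence of Tlr7. Values per gene do not separate it from transcripts of the Tlr7 locus. Tlr9 had a log2 difference, Tlr997 minus Tlr9het, of -0.34 (SE 0.090, adjusted p = 0.3) without agonist, not called, and of -0.70 (SE 0.090, adjusted p = 0.00078) with CpG, called lower. Tlr7 was called higher in Tlr997 in both states, at 1.81 (SE 0.17, adjusted p = 0.00059) and 1.13 (SE 0.17, adjusted p = 0.002). The part of these levels in the differences was not tested. Without agonist, 0 of the 10 were called between Tlr997 and Tlr9het, and 0.0174% of the tested genes were called higher and 0% lower. Of all tested genes 1237 had an unadjusted p under 0.05, and none of the 10 genes was among them. The log2 differences, Tlr997 minus Tlr9het, ran from -0.23 for Klf7 to 0.090 for Foxo3. The intervals were narrow for Foxo1, from -0.13 to 0.16, and wide for Klf4, from -0.50 to 0.64, and Foxo3, from -0.47 to 0.65. Without Tlr997 unstimulated replicate 3, the difference was 0.03 for Foxo1 and 0.27 for Foxo3, and 0 of the 10 were called.

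With CpG, Foxo1 was the only one of the 10 called between the genotypes, where 1.47% of tested genes were called lower in Tlr997 and 1.26% higher. The log2 difference was -0.56 (SE 0.067, adjusted p = 0.00044), with a 95% interval of -0.70 to -0.41. The 3 Tlr997 libraries, at 7.68, 7.55 and 7.67 log2 CPM, were all below the 3 Tlr9het libraries. For Klf13 the difference was -0.33 (SE 0.085, adjusted p = 0.042), and for Klf6 it was 0.36 (SE 0.093, adjusted p = 0.042). Both passed the threshold on adjusted p and not that on size. The differences were -0.39 (SE 0.11, adjusted p = 0.054) for Klf2 and -0.25 (SE 0.086, adjusted p = 0.12) for Klf3. Those for Klf4, Klf7, Foxo3, Foxp1 and Tsc22d3 had intervals that included 0. By limma, 5 of the 10 had an unadjusted p under 0.05, beside 2187 of 11494 tested genes. Summed B cell markers were at 11.5 to 11.7 log2 CPM in Tlr997 with CpG and at 10.8 in Tlr9het with CpG, and plasmacytoid dendritic cell markers at 1.31 to 2.20 and 2.39 to 2.63. Their part in these differences was not tested.

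The difference of the CpG responses, that in Tlr997 minus that in Tlr9het, was called for 1 of the 10, Foxo1, where 0.853% of tested genes were called lower and 0.687% higher. For Foxo1 it was -0.57 (SE 0.095, adjusted p = 0.0088), with a 95% interval of -0.78 to -0.37. Without Tlr997 unstimulated replicate 3 it was -0.58 with an adjusted p of 0.011. Without Tlr997 unstimulated replicate 1 it was -0.49 with an adjusted p of 0.0087, which is under the threshold on size. With all listed genes tested, its adjusted p was 0.051. For Klf6 it was 0.49 (SE 0.13, adjusted p = 0.083), which was not called. The values for Klf2, Klf13 and Klf3 were -0.39 (SE 0.15, adjusted p = 0.24), -0.36 (SE 0.12, adjusted p = 0.16) and -0.29 (SE 0.12, adjusted p = 0.26), none of them called. By limma's test of this difference, 5 of the 10 had an unadjusted p under 0.05, beside 1839 of 11494 tested genes.

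**Figure D3:**
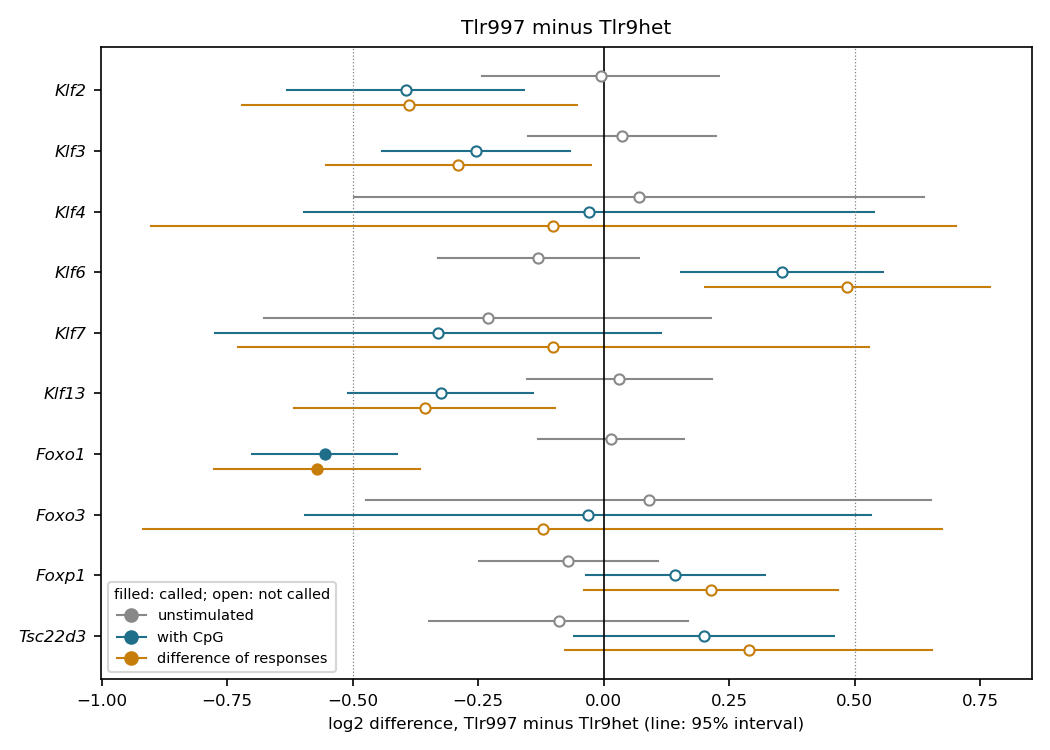
Log2 difference between Tlr997 and Tlr9het for each of the 10 genes, unstimulated, with CpG, and as the difference of the CpG responses. Points are limma estimates over 12 libraries, lines are 95% intervals, and filled points were called. Foxo1 is at 0.015 unstimulated, -0.56 with CpG and -0.57 for the difference of responses.

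**Figure D4:**
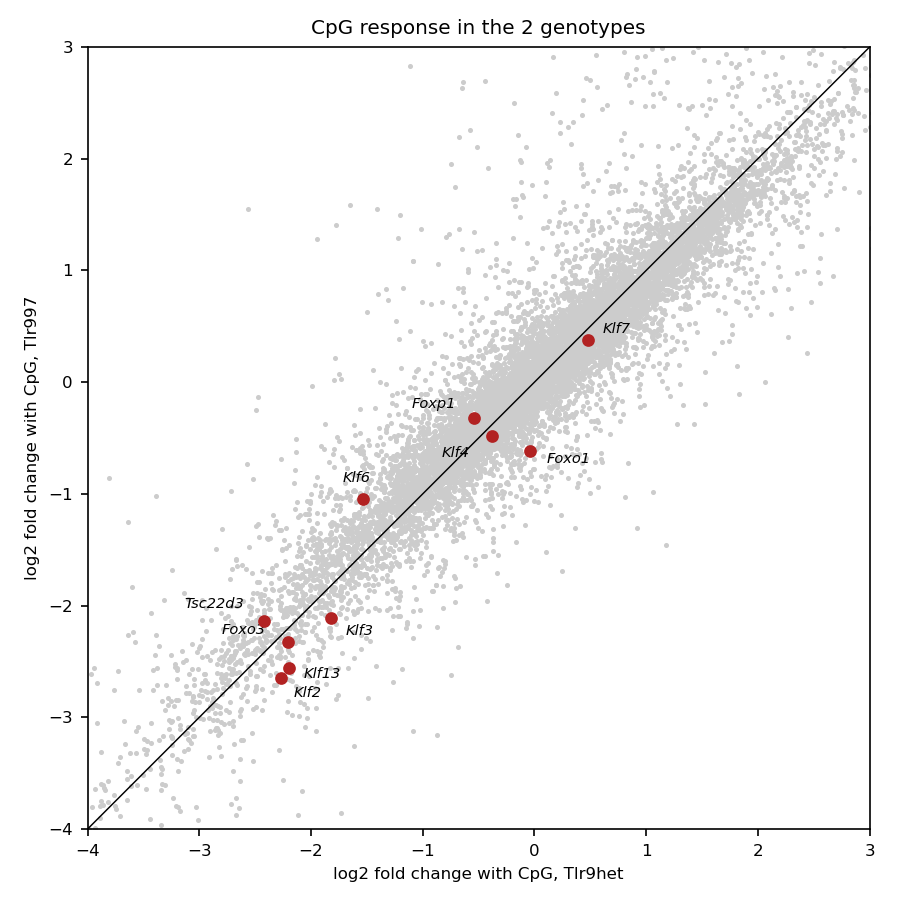
Log2 fold change with CpG in Tlr997 against that in Tlr9het for 11494 tested genes (grey) and the 10 genes (red). The black line marks equal responses, and the axes run from -4 to 3, with 316 genes outside them. Foxo1 lies below the line, at -0.04 in Tlr9het and -0.62 in Tlr997, and Klf6 above it, at -1.53 and -1.05.

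Genes that KLF2 or FOXO factors are known to control in lymphocytes were described next, as a list of 20, all tested. In Tlr9het 11 were called lower with CpG and 5 higher, with a median of -1.19. In Tlr997 it was 11 lower and 3 higher, with a median of -1.30, and in Tlr779 with CL097 it was 8 lower and 4 higher, with a median of -0.71. Of all tested genes 28.2%, 26% and 23.6% were called lower and 29.7%, 29.6% and 22.7% higher in these responses, with medians of 0.04, 0.07 and -0.02. The strongest falls in Tlr9het were in Ccng2, a cyclin that slows division, with a log2 fold change of -3.94 (SE 0.14, adjusted p = 3.6e-11), in Itgb7, an integrin subunit for homing to the gut, with -3.44 (SE 0.26, adjusted p = 3.7e-08) and in Sesn1, a stress-induced inhibitor of mTORC1, with -3.33 (SE 0.10, adjusted p = 1.1e-11). In Tlr997 the strongest were Itgb7 at -3.91 ± 0.26, S1pr1 at -3.88 ± 0.13 and Ccng2 at -3.64 ± 0.14. In Tlr779 they were Itgb7 at -2.93 ± 0.13, Ccng2 at -2.45 ± 0.22, Sesn1 at -2.21 ± 0.11 and Rbl2, which encodes the pocket protein p130, at -1.81 ± 0.11. Ccr7 and Il7r, also on the list, had higher means with agonist in each response. For Ccr7 the means without and with agonist were 9.51 and 10.78 log2 CPM in Tlr9het, 9.77 and 10.92 in Tlr997, and 9.72 and 11.35 in Tlr779. For Il7r they were 3.60 and 4.30 in Tlr9het, 3.40 and 5.10 in Tlr997, and 4.15 and 5.41 in Tlr779.

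Between the genotypes with CpG, 3 of these 20 genes were called lower in Tlr997 and 0 higher, beside 1.47% and 1.26% of all tested genes. S1pr1, the sphingosine-1-phosphate receptor that lets lymphocytes leave lymphoid organs, was at 8.95, 9.11 and 9.0 log2 CPM in unstimulated Tlr9het cells and at 6.38, 6.28 and 6.40 with CpG. In Tlr997 it was at 9.03, 8.75 and 9.02 and 4.90, 5.41 and 4.85, so the genotypes overlapped without agonist and were apart with it. The log2 difference with CpG was -1.30 (SE 0.13, adjusted p = 8e-05). The difference of responses was -1.21 (SE 0.18, adjusted p = 0.0041), the only one called on the list, with an adjusted p of 0.056 when all listed genes were tested. The study had already named S1pr1 and Bcl6 from these libraries, so their place on the list is not independent evidence.

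Cdkn1a and Bcl6 were the others of the list called lower in Tlr997 with CpG. The log2 difference was -0.84 (SE 0.21, adjusted p = 0.034) for Cdkn1a, the cell cycle inhibitor p21. For Bcl6, a transcriptional repressor needed for germinal centers, it was -0.55 (SE 0.093, adjusted p = 0.0041). Both had a higher mean with CpG than without in each genotype, in contrast to S1pr1. For Cdkn1a the means were 3.69 and 5.49 log2 CPM without and with CpG in Tlr9het, and 3.64 and 4.65 in Tlr997. For Bcl6 they were 6.45 and 7.37 in Tlr9het, and 6.33 and 6.83 in Tlr997. Cdkn1a lost the call when any of 5 libraries was left out (the 3 Tlr9het CpG libraries, Tlr997 CpG replicate 2 or Tlr997 CpG replicate 3), with values of -0.92 to -0.66. Bcl6 fell under the threshold on size, at -0.48 and -0.49, without Tlr997 CpG replicate 2 or 3. In unstimulated cells limma called 0 of the 20, of which 1 had an unadjusted p under 0.05. With CpG 9 of the 20 had an unadjusted p under 0.05, and for the difference of responses 7. Of 11494 tested genes, 1237, 2187 and 1839 did so in these comparisons.

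**Figure D5:**
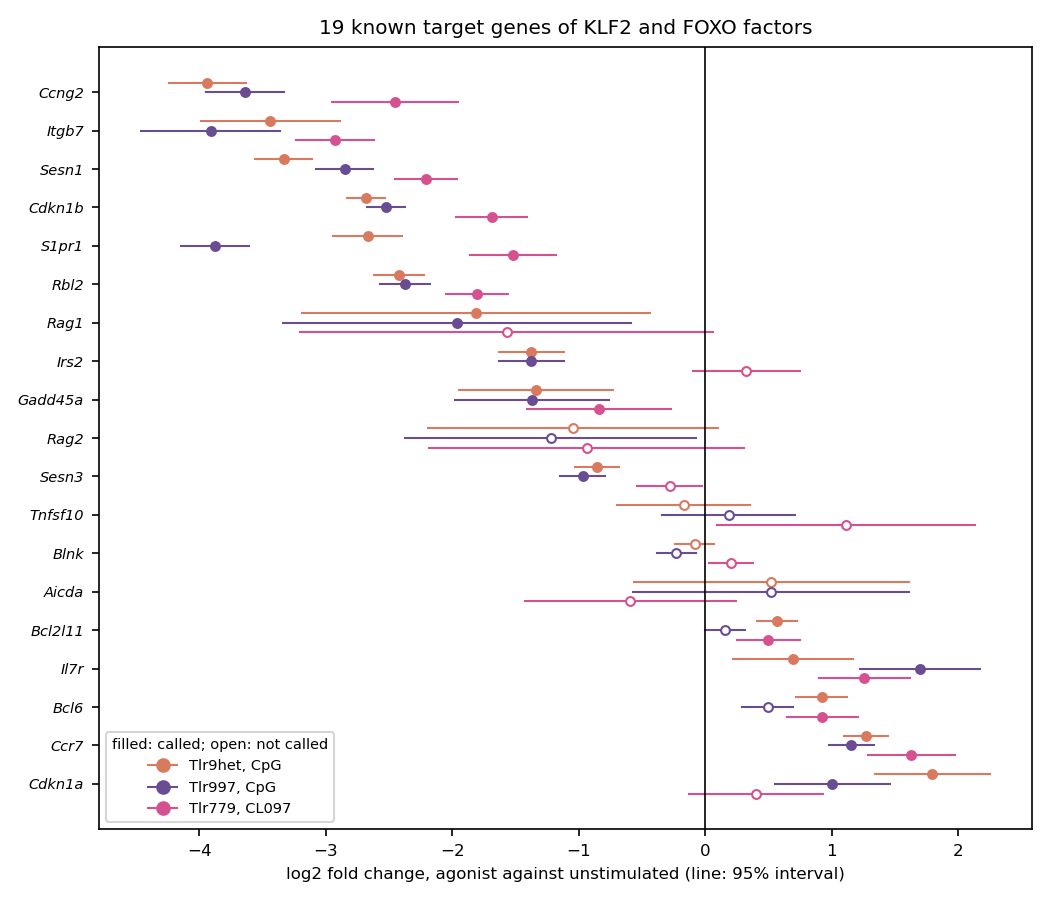
Log2 fold change with agonist of 19 of the 20 genes known as targets of KLF2 or FOXO factors, ordered by the Tlr9het value. Points are limma estimates from 3 libraries against 3, lines are 95% intervals and filled points were called. S1pr1 is at -2.67 in Tlr9het, -3.88 in Tlr997 and -1.52 in Tlr779.

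In the PI3K and AKT pathway, which acts upstream of FOXO proteins, 23 of 23 listed genes were tested. With CpG 14 were called lower and 1 higher in Tlr9het and 12 lower and 2 higher in Tlr997, and with CL097 11 were lower and 3 higher in Tlr779. Of all tested genes 28.2% were called lower and 29.7% higher in Tlr9het, 26% and 29.6% in Tlr997, and 23.6% and 22.7% in Tlr779. The median log2 fold changes of the 23 were -0.72, -0.81 and -0.39, beside 0.04, 0.07 and -0.02 over all. The study had named Inpp5d from the CL097 libraries of Tlr779, so its place on the list is not independent evidence. Inpp5d, the phosphatase SHIP1 that removes the lipid product of PI3K, had the strongest fall in each response. Its log2 fold change was -4.94 (SE 0.067, adjusted p = 1.8e-14) in Tlr9het, -4.30 (SE 0.067, adjusted p = 1.9e-13) in Tlr997 and -2.21 (SE 0.13, adjusted p = 6.6e-06) in Tlr779. Pik3ip1, an inhibitor of PI3K, was at -2.86 ± 0.16, -3.12 ± 0.16 and -1.30 ± 0.14. The catalytic subunit gene Pik3cg was at -2.06 ± 0.15 in Tlr9het, -2.54 ± 0.15 in Tlr997 and -1.29 ± 0.20 in Tlr779. The regulatory subunit gene Pik3r2 was at -1.94 ± 0.14 in Tlr9het, -1.55 ± 0.14 in Tlr997 and -1.58 ± 0.13 in Tlr779, and Pik3r1 at -1.81 ± 0.11 in Tlr9het, -1.75 ± 0.11 in Tlr997 and -1.50 ± 0.12 in Tlr779. Genes that promote PI3K signaling and genes that oppose it were both among those called lower. Mtor, also on the list, had a higher mean with agonist in each response. Its means without and with agonist were 6.69 and 7.46 log2 CPM in Tlr9het, 6.60 and 7.36 in Tlr997, and 6.49 and 7.50 in Tlr779.

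Between the genotypes, Inpp5d was at 10.16, 10.03 and 10.11 log2 CPM in unstimulated Tlr9het cells and at 9.96, 9.87 and 9.88 in unstimulated Tlr997 cells. With CpG it was at 5.18, 5.25 and 5.06 in Tlr9het and at 5.73, 5.54 and 5.55 in Tlr997, and was not called. The difference of responses, Tlr997 minus Tlr9het, was 0.64 (SE 0.094, adjusted p = 0.0042). Pik3r5, a regulatory subunit of PI3K gamma, was at 5.34, 5.37 and 5.36 in unstimulated Tlr9het cells and at 4.88, 5.10 and 5.31 in unstimulated Tlr997 cells. For both genes the unstimulated Tlr997 libraries thus lay below those of Tlr9het, without a call. With CpG Pik3r5 was at 5.13, 5.26 and 5.33 in Tlr9het and at 5.67, 5.88 and 5.84 in Tlr997. The groups with CpG did not overlap, and the log2 difference was 0.56 (SE 0.10, adjusted p = 0.0061). The difference of responses was 0.82 (SE 0.14, adjusted p = 0.012), with an adjusted p of 0.062 when all listed genes were tested. For Pik3cg the log2 difference with CpG was -0.65 (SE 0.15, adjusted p = 0.023), called lower in Tlr997, and it lost the call without Tlr9het CpG replicate 1, Tlr9het CpG replicate 2 or Tlr997 CpG replicate 3. The counts were 1 higher and 1 lower of 23 with CpG and 2 higher and 0 lower for the difference of responses, and in unstimulated cells limma called 0, with 4 at an unadjusted p under 0.05. With CpG 9 of the 23 had an unadjusted p under 0.05, and for the difference of responses 6.

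Of 14 other genes tied to lymphocyte quiescence, all tested, 10 were called lower and 1 higher in Tlr9het, 11 lower and 1 higher in Tlr997, and 9 lower and 1 higher in Tlr779. The shares of all tested genes called lower and higher were 28.2% and 29.7%, 26% and 29.6%, and 23.6% and 22.7%. The medians of the 14 were -1.86, -2.04 and -1.43, beside 0.04, 0.07 and -0.02 over all. Dgka, Btg2 and Ets1 had been named by the study from the CL097 libraries of Tlr779, so their place on the list is not independent evidence. The 4 strongest falls in Tlr9het and in Tlr997 were in Dgka, a diacylglycerol kinase that dampens receptor signals, at -4.09 ± 0.15 and -4.11 ± 0.15, Ets1, a transcription factor that restrains plasma cell formation, at -3.56 ± 0.093 and -3.61 ± 0.093, Pik3ip1, and the antiproliferative gene Btg2 at -2.77 ± 0.091 and -2.62 ± 0.091. In Tlr779 they were in Txnip, a brake on glucose uptake, at -2.72 ± 0.091, Dgka at -2.05 ± 0.17, Tob1, an antiproliferative gene, at -1.84 ± 0.12, and Rbl2. Between the genotypes limma called 0 of the 14, and 3 without agonist, 0 with CpG and 3 for the difference of responses had an unadjusted p under 0.05.

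Relatives of the 10 genes were counted in the same way. Of 11 other Klf genes 8 were tested, and 2 were called lower and 2 higher in Tlr9het, 1 lower and 3 higher in Tlr997, and 1 lower and 1 higher in Tlr779. Of all tested genes 28.2% were called lower and 29.7% higher in Tlr9het, 26% and 29.6% in Tlr997, and 23.6% and 22.7% in Tlr779, so the Tlr9het counts lay near the background. The medians of the 8 were -0.17, -0.24 and 0.22. Klf16 was higher in each response, with log2 fold changes of 1.36 (SE 0.085, adjusted p = 6.5e-09) in Tlr9het, 1.00 (SE 0.085, adjusted p = 1.7e-07) in Tlr997 and 0.93 (SE 0.11, adjusted p = 0.00015) in Tlr779. Klf12 was higher in Tlr9het at 0.81 ± 0.19 and in Tlr997 at 0.98 ± 0.19, and was at 0.37 ± 0.15 in Tlr779, not called. Klf9 was higher in Tlr997 at 1.20 ± 0.33, and without Tlr997 unstimulated replicate 3, which was at 1.24 log2 CPM beside 2.69 and 2.81 in the other two, at 0.70 with an adjusted p of 0.0026. In Tlr9het it was at 0.68 ± 0.33, not called. Klf10 was lower in Tlr9het, at -0.63 ± 0.19, and lost the call without Tlr9het unstimulated replicate 1 (-0.49, adjusted p = 0.053), and it was at -0.18 ± 0.19 in Tlr997 and 0.12 ± 0.14 in Tlr779, not called. Of 8 other FOXO, FOXP and TSC22 genes, 6 were tested in the first arm and 5 in Tlr779. In Tlr9het 3 were called lower and 2 higher, in Tlr997 3 lower and 0 higher, and in Tlr779 3 lower and 1 higher, with medians of -0.75, -0.82 and -0.99. Tsc22d1, Foxo4 and Tsc22d4 were the 3 lower genes in each response, at -2.37 ± 0.095, -2.02 ± 0.16 and -1.56 ± 0.13 in Tlr9het, at -2.11 ± 0.095, -1.69 ± 0.16 and -1.71 ± 0.13 in Tlr997, and at -1.38 ± 0.17, -0.99 ± 0.10 and -1.14 ± 0.062 in Tlr779. Foxp4 was higher in Tlr9het at 0.82 ± 0.090 and in Tlr779 at 0.57 ± 0.11, the latter under the threshold on size, at 0.49, without Tlr779 CL097 replicate 2. The Tlr997 value was 0.30 ± 0.090, under that threshold. In either list limma called 0 genes between the genotypes. With CpG, 2 of the 8 Klf genes and 2 of the 6 others had an unadjusted p under 0.05.

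Since Tsc22d3 is a glucocorticoid target, 9 genes of that response were set beside it, of which 8 were tested. In Tlr9het 4 were called lower and 2 higher, in Tlr997 4 lower and 3 higher, and in Tlr779 4 lower and 0 higher. The shares of all tested genes were 28.2% lower and 29.7% higher, 26% and 29.6%, and 23.6% and 22.7%, and the medians of the 8 were -0.48, -0.80 and -0.27. Nr3c1, the glucocorticoid receptor, was lower at -1.41 ± 0.073, -1.60 ± 0.073 and -1.12 ± 0.15 in Tlr9het, Tlr997 and Tlr779. The kinase gene Sgk1 was lower at -1.31 ± 0.18, -1.37 ± 0.18 and -1.14 ± 0.17, and Ddit4, an inhibitor of mTORC1, at -1.01 ± 0.17, -1.53 ± 0.17 and -1.82 ± 0.22. Errfi1 was higher in Tlr9het, at 1.11 ± 0.25, and in Tlr997, at 1.05 ± 0.25, and was at 0.10 ± 0.23 in Tlr779, not called. The circadian gene Per1 was lower in each response, at -0.98 ± 0.096 in Tlr9het, -1.12 ± 0.096 in Tlr997 and -0.58 ± 0.092 in Tlr779, the last being -0.49 without Tlr779 unstimulated replicate 1. Fkbp5, also on the list, went the other way, with a higher mean with agonist in each response. Its means without and with agonist were 5.13 and 6.02 log2 CPM in Tlr9het, 5.02 and 5.84 in Tlr997, and 4.67 and 5.10 in Tlr779. Between the genotypes limma called 0 of the 8, of which 1 had an unadjusted p under 0.05 with CpG. Pik3ip1, Cdkn1b, Rbl2, Klf9 and Sgk1 are each on 2 of these lists.

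Over the 12 libraries of the Tlr7-/- arm, all of which share the CpG contrast, the tested genes most like each of the 10 in pattern were named by Pearson r. For Klf2 they were Ctdsp1 and Tgfb1 (r = 0.998 and 0.997), for Klf3 Cxcr4 and Irf2 (r = 0.997 for each), for Klf13 Lbh and Stk24 (0.998 and 0.997) and for Tsc22d3 Rdh12 and Slc28a2 (0.997 for each). For Klf6 they were Myo18a and Nub1 (0.994 and 0.992) and for Foxo3 Stradb and Cdc25b (0.994 and 0.993). Foxo1, which was not called with CpG in Tlr9het, was most like Rhoh and 5031414D18Rik (0.972 and 0.964), and Foxp1 most like Egfl6 and 3110052M02Rik (0.979 and 0.968). The values were lowest for the 2 least abundant genes, at 0.950 and 0.943 for Gtf2ird1 and Rgs13 with Klf4 and at 0.901 and 0.897 for Rasa2 and Srrt with Klf7.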

How the data were processed

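Stranded mRNA libraries were sequenced, and the authors trimmed reads (FastQC 0.11.7, Trim Galore 0.6.5), aligned them to mm10 with STAR 2.6.1a, counted them per gene with featureCounts (Subread 2.0.1), and applied quantile normalization, voom and limma. The deposited values are log2 CPM per gene, 1 file per library, with no counts, so depth is unknown and no counting interval was computed. Voom's offset of 0.5 counts understates the change of low genes. By its formula, 3 counts lie at -2.24 log2 CPM, for the lowest common value of -5.05. No 2 files were identical.

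Genes over 0 log2 CPM in at least 3 fitted libraries were tested with limma 3.58.1 (R 4.3.3, trended variance), with 1 model for the 12 libraries of the Tlr7-/- arm and 1 for the 6 Tlr779 libraries. P-values were adjusted by Benjamini-Hochberg over all tested genes. A call needed a log2 fold change over 0.5 in size at an adjusted p under 0.05. The script was tested on simulated data. Tables, motif searches and figures were made with Python 3.11.15, pandas 2.3.3 and matplotlib 3.10.9. Level per kb used merged exon lengths of GENCODE (GRCm38).

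The 10 genes and the gene lists were chosen with earlier results of these data known. All 10 were named. From each list and comparison, up to 4 called genes with the largest absolute change and a mean over 2 log2 CPM were named, and for each of the 10 the 2 genes with the highest Pearson r to it. Fkbp5, Ccr7, Il7r and Mtor, which were higher where most named genes of their lists were lower, were named besides. For 1 gene of the target list, counted with its list, the values are not reported here.

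Deviations from the group means of libraries with the same replicate number correlated at 0.51, 0.29 and 0.51 in Tlr9het and at 0.25, 0.49 and 0.33 in Tlr779, which were taken as paired, and at 0.37, 0.083 and 0.025 in Tlr997, where pairing was not established. The main fits did not use this pairing, and the replicate block was an alternative. For the difference of responses, 177 of 11494 genes were called without the block, 215 with it and 328 with the block within genotype. Of 6614 genes at the low end in the Tlr7-/- arm, 6306 had 1 value per replicate number, and for 822 that value differed between the numbers (1817 of 7302 in Tlr779). Whether an offset per number was removed before deposit is not given in the sources used here. If it was, a fit without a replicate block counts degrees of freedom that the removal used. Alternatives covered filters, log2(CPM + 1), centring, the variance trend, the replicate block, the samples fitted, the threshold on size and leaving out each library.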

Additional observations from a re-analysis of the deposited data

Results flagged for a closer look

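Among the genes named, 4 had a CpG response that differed between Tlr997 and Tlr9het by limma's test of the difference itself, and they are listed for that reason. The differences, Tlr997 minus Tlr9het on the log2 scale, were -0.57 for Foxo1, -1.21 for S1pr1, 0.82 for Pik3r5 and 0.64 for Inpp5d. In Tlr997 with CpG the 3 libraries of Foxo1 and of S1pr1 lay below, and those of Pik3r5 and Inpp5d above, the 3 Tlr9het libraries. Without agonist the Tlr997 libraries of Pik3r5 and Inpp5d lay below the Tlr9het libraries, so part of their difference of responses came from the unstimulated levels. Without Tlr997 unstimulated replicate 3, which stood apart, the differences were -0.58, -1.16, 0.92 and 0.63, and each was still called. Groups had 3 libraries each, so no test for a single deviating library was made.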

How the results depend on the processing

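With the replicate number as a block, no call of the 10 genes changed: for the difference of responses Foxo1 stayed at -0.57, with an adjusted p of 0.0069 (0.0024 with the block within genotype), and for the Tlr9het response of Foxo3 the SE went from 0.26 to 0.11. For Klf6, the difference of responses had an adjusted p of 0.083 without the block, 0.028 with it and 0.0088 within genotype, under the threshold on size in each. Counts of the 10 genes called moved by over 1.5 times in these cases: with any fold change, higher in Tlr9het 1, higher with CpG between genotypes 1 and lower 2; with an absolute log2 fold change over 1, lower in Tlr779 4, lower with CpG between genotypes 0 and lower in the difference of responses 0; with no filter, lower in the difference of responses 0, where more genes were tested. Smaller moves from 7 lower were to 8 in Tlr997 and Tlr779 with any fold change (Foxp1), to 6 in Tlr9het (without Foxp1) and Tlr997 (without Foxo1) with a change over 1, and to 6 in Tlr779 with no filter or no variance trend (without Foxo3). When each library was left out, the counts ran from 0 to 1 for higher in Tlr9het (Klf7), and from 0 to 1 for lower in the difference of responses (0 without Tlr997 unstimulated replicate 1). Lower in Tlr997 ran from 7 to 8 (Klf4, without CpG replicate 2) and lower in Tlr779 from 6 to 7 (Foxo3). Where 13 values near 0, none called, changed sign, it was when a library was left out. Their ranges were, in the CL097 response, -0.12 to 0.31 for Klf4 and -0.48 to 0.021 for Klf7; between unstimulated genotypes, -0.11 to 0.13 for Klf2, -0.024 to 0.094 for Klf3, -0.076 to 0.20 for Klf4, -0.072 to 0.086 for Klf13, -0.063 to 0.083 for Foxo1 and -0.16 to 0.27 for Foxo3; with CpG, -0.31 to 0.17 for Klf4 and -0.26 to 0.16 for Foxo3; and for the difference of responses, -0.38 to 0.095 for Klf4, -0.27 to 0.079 for Klf7 and -0.35 to 0.13 for Foxo3. Over the alternatives, 1218 other values of the 10 genes kept direction and side of the thresholds, 14 lost a call and 8 gained one. Of list genes named by the size of their change, 1406 values kept theirs and 36 lost a call. Foxo3 in the CL097 response lost its call without the variance trend (adjusted p = 0.062). Cdkn1a and Pik3cg with CpG between genotypes lost theirs with no filter (adjusted p = 0.17 and 0.13), without the variance trend (0.084 and 0.067) and with all 18 libraries in 1 model (0.054 and 0.063), and Klf10 in Tlr9het with no filter (0.054). Except where noted, the cause was not tested. The fit on only the compared groups cannot give the difference of responses, and in Tlr779 the block within genotype is the same as the block. With 3 libraries a group and unknown depth, small differences in the low genes Klf4, Klf7 and Foxo3 were not resolved.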
